A study of Mus musculus with 24 samples.

Results

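The 8 genes described here make, convert or use nicotinamide adenine dinucleotide (NAD): Nampt, Nmnat1, Nadk, Sirt1, Sirt2, Sirt3, Sirt6 and Parp1. They were taken by gene symbol from the 53465 genes of the table. Of all genes, 15493 passed the expression filter of the study, a minimum of 5 normalized reads in 6 controls or in 6 mutants, and all 8 passed it.

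RNA-seq was performed on endothelial cells, the cells lining the blood vessels, that were sorted with an anti-CD31 antibody from the brain of a single mouse per library. Control mice were Bmal1fl/fl and mutant mice were Bmal1fl/fl; Tie2cre, both labelled C57BL/6J, kept in alternating light and dark with free access to food, and of both sexes, with no age given for these libraries. Both genotypes carry the floxed Bmal1 alleles, and only the mutants carry the Cre transgene. Cre is driven by the promoter of Tie2 (Tek), a receptor of endothelial cells that is also active in precursors of blood cells, so that deletion need not be limited to the vessel wall. Brains were taken at zeitgeber time (ZT, hours after lights on) 2, 6, 10, 14, 18 and 22, with 2 mice per genotype and time, giving 12 control and 12 mutant libraries. The comparison of the genotypes asks whether levels or daily rhythms of these transcripts depend on the endothelial clock.

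NAD is used up by sirtuins, which remove acyl groups from proteins, and by poly(ADP-ribose) polymerases, both of which release nicotinamide. The salvage pathway turns nicotinamide back into NAD: NAMPT joins it to phosphoribosyl pyrophosphate to make nicotinamide mononucleotide (NMN), and NMN adenylyl transferases such as NMNAT1 make NAD from NMN. Nampt is a known target of the CLOCK:BMAL1 complex in other tissues, where NAD made by this route feeds back on the clock through SIRT1.

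CLOCK:BMAL1 binds E-boxes, of which the 6 letters CACGTG are the canonical form. These letters read the same on both strands and were searched in the RefSeq promoter windows of GRCm38.p6, which run from 250 bases before to 50 bases after a transcript start. All 8 genes had a window, 12 windows in all, and CACGTG was found in 3 of them, belonging to Sirt1, Parp1 and Nadk. Of the 32851 windows counted over all genes, 7.15% held it and 0.594% held it 2 or more times. The windows of Nampt, the clock target of the group, and of Sirt1, which has 2 matches, are printed whole. For Parp1 and Nadk 60 bases around the match are printed. Capitals mark CACGTG, and all are written 5′ to 3′ on the strand of the gene.
Nampt, chr12:32820085-32820384, plus strand: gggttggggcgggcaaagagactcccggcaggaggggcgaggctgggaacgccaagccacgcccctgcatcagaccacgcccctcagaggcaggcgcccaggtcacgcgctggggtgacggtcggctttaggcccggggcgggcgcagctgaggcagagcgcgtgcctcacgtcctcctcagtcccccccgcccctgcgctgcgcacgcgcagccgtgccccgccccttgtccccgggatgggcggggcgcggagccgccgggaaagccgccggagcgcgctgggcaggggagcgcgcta
Sirt1, chr10:63338986-63339285, minus strand: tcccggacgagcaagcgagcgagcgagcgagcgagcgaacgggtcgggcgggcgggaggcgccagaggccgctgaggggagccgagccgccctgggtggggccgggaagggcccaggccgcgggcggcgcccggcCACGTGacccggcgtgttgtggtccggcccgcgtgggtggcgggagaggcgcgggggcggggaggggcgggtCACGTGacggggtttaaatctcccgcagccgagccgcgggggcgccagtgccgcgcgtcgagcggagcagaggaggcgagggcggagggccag
Parp1, chr1:180568815-180568874, plus strand: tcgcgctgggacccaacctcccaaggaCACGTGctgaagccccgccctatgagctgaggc
Nadk, chr4:155563748-155563807, plus strand: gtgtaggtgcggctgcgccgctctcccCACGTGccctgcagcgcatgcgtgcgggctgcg

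The matches began 115 and 43 bases before the start in Sirt1, 49 bases before it in Parp1 and 40 bases before it in the second of the Nadk windows. These are starts of RefSeq transcripts. The windows of Sirt1 and Nampt and the second windows of Nadk, Sirt3 and Sirt6 lie inside the gene spans given below, which come from another annotation. In the printed Nampt window these letters do not occur, which says nothing of sites elsewhere in the gene. No binding was measured in these data, and a match is a description of the sequence only.

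The libraries held between 6136404 and 6648311 normalized reads. Endothelial markers were high in all 24, with 65232 to 109859 reads summed over 9 genes, and Flt1, a receptor for vascular endothelial growth factor, alone had 27048 to 45752. The 8 libraries of ZT6 and ZT18 stood apart from the other 16: mitochondrial reads were 2.68% to 3.90% of the total there and 5.78% to 17.4% elsewhere, and the sum of 8 microglial markers was 1365 to 2493 there and 12428 to 33045 elsewhere. Oligodendrocyte markers summed to 2215 to 4488 against 5272 to 18103, and astrocyte markers to 4764 to 7761 against 10668 to 21235. In the ZT6 and ZT18 libraries all 8 microglial, all 8 astrocyte and 7 of 9 oligodendrocyte markers were detected, with Mog and Opalin at 0. Since no library of those times lies outside that series, these times and the series cannot be told apart. Of 2 i5 sequencing indices named in the labels, the use was unequal between the genotypes: 1 of them marks 8 of 12 mutants, all those outside ZT6 and ZT18, and 4 of 12 controls, those of ZT14 and ZT22. The targeted gene, listed as Arntl, had 1 to 468 reads in controls (lowest at ZT10) and 81 to 354 in mutants. Whole-gene counts include exons outside the floxed one, so that its level does not check the deletion. The amplitude of a fitted 24-h cosine was 117% of the mean in controls and 21.7% in mutants for Arntl, with p = 9.11e-06 for the difference in rhythm in edgeR (n = 24) and an adjusted p of 0.141. Other clock genes were lower in mutants over all times in edgeR (n = 24). The log2 fold change was -1.91 for Nr1d2 (adjusted p = 8.57e-06), -1.89 for Per3 (4.18e-05) and -2.26 for Nr1d1 (6.59e-04). It was -0.87 for Tef (0.00458) and -1.26 for Dbp (0.0115). Per2 (-0.24, adjusted p = 0.932) and Arntl (0.96, adjusted p = 0.639) did not pass.

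Levels were compared between genes as normalized reads per kilobase (kb) of annotated exon, over the 24 libraries. Nampt, the rate-limiting enzyme of salvage, was the most abundant of the 8 at 267 ± 62.1 reads per kb (SD, n = 24). Nadk, the cytosolic kinase that turns NAD into NADP, followed at 102 ± 15.6. No library of Nampt overlapped any of Nadk, the lowest Nampt value being 180 reads per kb and the highest Nadk value 125. Parp1, the polymerase that DNA breaks activate, had 72.3 ± 17.9, Sirt2, a mainly cytoplasmic deacetylase of tubulin and other proteins, had 67.1 ± 13.1 and Sirt1, a nuclear deacetylase, had 53.1 ± 12.1 reads per kb. Nadk, Parp1, Sirt2 and Sirt1 overlapped with their neighbours in this order, and Parp1 lay above Sirt2 in only 13 of 24 libraries. A gap followed: the lowest Sirt1 value, 30.2 reads per kb, was above the highest of Nmnat1, 28.0. Nmnat1, the nuclear NMN adenylyltransferase, had 17.7 ± 6.76, Sirt6, a chromatin-bound deacetylase, 10.4 ± 4.90 and Sirt3, the main mitochondrial deacetylase, 5.77 ± 2.59 reads per kb, with overlapping ranges.

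**Figure D1:**
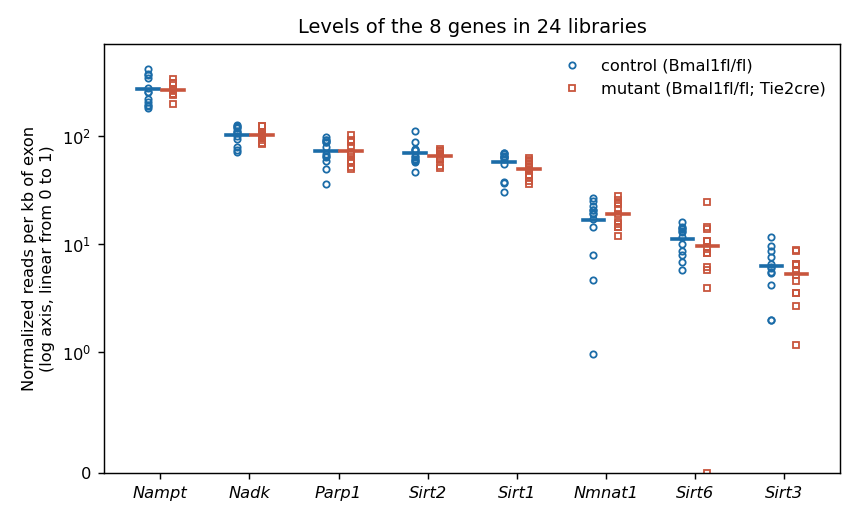
Normalized reads per kb of exon (log axis, linear from 0 to 1) for the 8 genes in each control (circles) and mutant (squares) library, with the mean of each genotype as a bar. Nampt lies above all others, Nmnat1, Sirt6 and Sirt3 lie below, and 1 mutant library is at 0 for Sirt6.

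The lower 3 genes rested on few reads. Across the 24 libraries Nmnat1 had 3 to 85 reads, Sirt3 7 to 69 and Sirt6 0 to 68, for which counting error alone gives a coefficient of variation of 13.6%, 17.0% and 18.6% at their means. The observed values were 38.1%, 44.8% and 47.1%. For Nampt, with 909 to 2099 reads, counting error alone would give 2.72% and 23.2% was observed. These counting errors refer to reads after normalization, from which the original depth cannot be read.

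Genomic positions are those of GRCm38. Nampt lies at chr12:32819545-32853349 on the plus strand and overlaps the lincRNA Gdap10 on the same strand over 5033 bases. Gdap10 had 299 reads on average and Nampt 1350, so that reads of the shared stretch could count for either. Sirt2 (chr7:28766735-28788661, plus) overlaps Nfkbib, and Sirt3 (chr7:140863666-140882309, minus) overlaps Ric8a and Psmd13, in both cases on the opposite strand. The libraries were strand-specific, but the strand setting of the counting is not given in the sources used here. Nmnat1 lies at chr4:149467572-149485202 (minus), Nadk at chr4:155562378-155591001 (plus), Sirt1 at chr10:63319005-63381704 (minus), Sirt6 at chr10:81621785-81627797 (minus) and Parp1 at chr1:180568924-180601254 (plus).

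No gene of the 8 passed the test for a difference in level between the genotypes over all 6 times. In edgeR's quasi-likelihood test with time as a factor, 0 of 8 had an adjusted p under 0.05 and 0 of 8 an unadjusted p under 0.05, where 0.271% of the 15493 genes tested passed the first and 6.95% the second. DESeq2 also called 0 of 8 by either threshold, with no adjusted p given for 3 of them. The fitted log2 fold changes of 3 genes were above 0 and those of 5 below, with a median of -0.038, beside a median of 0.0033 over all genes. Since the RNA came from a sorted population, fewer cells of a type and less RNA per cell cannot be told apart in any of these values.

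**Figure D2:**
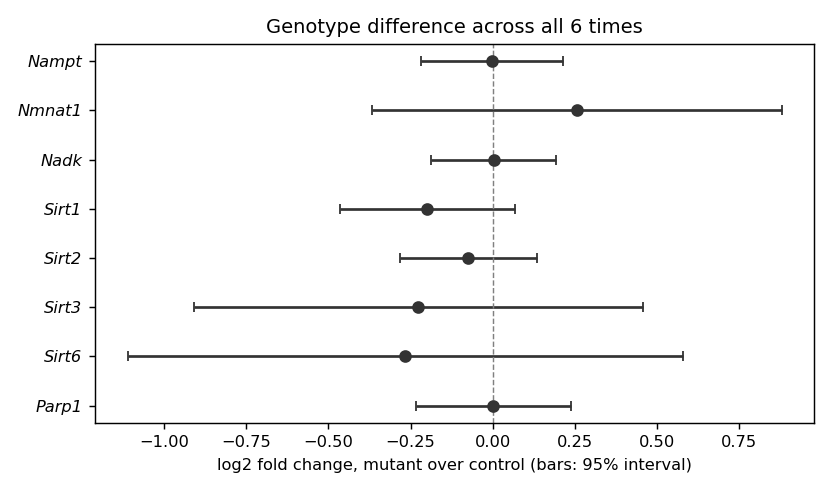
Fitted log2 fold change of mutants over controls for each of the 8 genes across all 6 times (points), with the 95% interval from edgeR as bars and 0 as a dashed line. Every interval spans 0, and those of Nampt, Nadk, Sirt2 and Parp1 are the narrowest.

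Reads are given for each time as the first mouse/the second mouse. For Nampt in controls they were 1030/1281 at ZT2, 2099/1857 at ZT6, 944/1731 at ZT10, 1102/1269 at ZT14, 1832/1383 at ZT18, 909/962 at ZT22. In mutants they were 1689/1216 at ZT2, 1299/1535 at ZT6, 1339/1191 at ZT10, 1218/987 at ZT14, 1544/1328 at ZT18, 1318/1348 at ZT22. The genotypes did not overlap at ZT6, where controls were higher, and at ZT22, where mutants were higher, and they overlapped at the other 4 times. At ZT6 the genotypes did not overlap for 33.2% of all genes tested and at ZT22 for 30.4%. The mean over all times was 1367 ± 413 reads in controls and 1334 ± 186 in mutants (SD, n = 12 each), and the log2 fold change was -0.0019 with a 95% interval of -0.22 to 0.21 (edgeR adjusted p = 0.999). A mean change of more than 1.16-fold in either direction thus lay outside the interval.

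No 24-h rhythm of Nampt was called in either genotype. Its 4 control libraries of ZT6 and ZT18, which lie 12 h apart, had 1383 to 2099 reads, and the 8 of the other times 909 to 1731, so that the ranges overlapped through 1 library of each. In mutants the ranges were 1299 to 1544 and 987 to 1689. The amplitude of the fitted cosine was 16.4% of the mean in controls, with a peak at ZT8.26, and 9.54% in mutants, with a peak at ZT1.24. By meta2d, which combines JTK_CYCLE and Lomb-Scargle, p was 1.00 in controls and 0.994 in mutants (n = 12 each), while the rhythm difference had p = 0.208 in edgeR (n = 24, adjusted p = 1.00). Its p was 0.0312 (adjusted p = 1.00) without the first control mouse of ZT10.

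In an added comparison, chosen after the data were seen, the genotypes were compared for Nampt within the 2 series of libraries. The log2 fold change was -0.30 (SE 0.13) in the ZT6 and ZT18 libraries and 0.14 (SE 0.13) in the others, with adjusted p of 0.866 and 0.95 in edgeR, where 0.0194% of all genes passed in the ZT6 and ZT18 libraries alone. Neither passed. In the first series the mutant mean was lower at both times, with overlap at ZT18, and in the second it was higher at ZT2 and ZT22 and lower at ZT10 and ZT14. The difference between the series of -0.44 (SE 0.21) had p = 0.0459 in edgeR (n = 24) and an adjusted p of 1.00. An unadjusted p under 0.05 for this difference was reached by 4.38% of all genes and an adjusted one by 0 genes. Microglial, oligodendrocyte, astrocyte and mitochondrial reads were low in that same series, as given above, and endothelial markers were high in it (100195 to 109859 reads against 65232 to 96471). Mural markers had a median of 22502 reads there against 13784 elsewhere, and the isolation response one of 52419 against 35620. Within that series microglial markers were 1365 to 2493 in controls and 1547 to 2109 in mutants at ZT6 and ZT18. The part of these cells in the Nampt values was not tested.

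**Figure D3:**
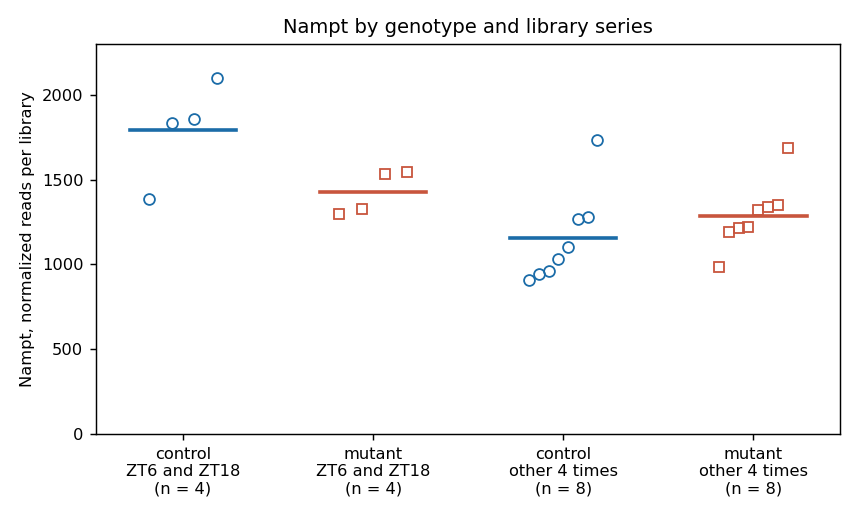
Normalized reads of Nampt in each library, by genotype and by whether the mouse was taken at ZT6 or ZT18 or at the other 4 times, with group means as bars. Controls of ZT6 and ZT18 reach 2099 reads, while the mutant groups lie close to each other.

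Nampt was set against the summed markers of 7 other sources of RNA. Microglial, oligodendrocyte and astrocyte sums fell into separate clusters by series, so that no pooled correlation is given for them. With summed neuronal markers, Nampt had Pearson's r = -0.54 (permutation p = 0.00636, adjusted over 56 relations 0.0594) and Spearman's rho = -0.61 (permutation p = 0.00188, adjusted 0.0263) over 24 libraries. The r was -0.37 without the 2 libraries farthest from the median, -0.37 (permutation p = 0.365) within the 8 ZT6 and ZT18 libraries and -0.23 (permutation p = 0.393) within the other 16. Neuronal markers summed to only 164 to 937 reads over 7 genes. Mural cell markers, of pericytes and smooth muscle, gave r = 0.33 over 24 libraries (permutation p = 0.1202), -0.72 within the 8 (permutation p = 0.0248, adjusted 0.587) and -0.11 within the 16 (permutation p = 0.678). Within the 8 it was -0.26 without the 2 farthest libraries, and rho was -0.60 (permutation p = 0.133). With the isolation response r was 0.38 (permutation p = 0.0713, adjusted 0.233) and rho 0.41 (permutation p = 0.0486, adjusted 0.214) over 24 libraries, and r was -0.39 within the 8 and 0.17 within the 16. With red blood cell markers r was -0.28 over 24 (permutation p = 0.190), 0.57 within the 8 (permutation p = 0.137) and -0.19 within the 16 (permutation p = 0.490). The sign thus changed between the series for both lists. With microglial markers r was -0.72 (permutation p = 0.0432, adjusted 0.587) within the 8 and -0.21 (permutation p = 0.437) within the 16. Astrocyte markers gave -0.038 (permutation p = 0.950) within the 8 and -0.33 (permutation p = 0.211) within the 16. Without the 2 farthest libraries of each these became 0.92 and -0.54, and rho within the 16 was -0.47 (permutation p = 0.0678). Oligodendrocyte markers gave r = 0.10 (permutation p = 0.813) and -0.20 (permutation p = 0.457), or -0.35 and -0.31 without the 2 farthest.

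The genes whose pattern over the 24 libraries was most like that of Nampt, by Pearson's r of log2 CPM, were Rasgrp3 (0.81), Atp11b (0.80), Wwtr1 (0.80), Fli1 (0.80) and Lmo7 (0.79). Fli1 and Wwtr1 are transcriptional regulators, Rasgrp3 a Ras activator and Atp11b a phospholipid flippase. Each had 765 to 1724 reads on average, and all points share the libraries and their series.

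Nmnat1, which completes the salvage step, was measured from few reads. Controls had 24/63 reads at ZT2, 63/80 at ZT6, 44/14 at ZT10, 3/57 at ZT14, 59/68 at ZT18, 52/75 at ZT22. Mutants had 44/46, 85/77, 71/44, 49/73, 36/58, 64/44 at the same times. The control mice of ZT14 lay far apart, and the genotypes did not overlap only at ZT18. The means were 50.2 ± 24.4 in controls and 57.6 ± 15.997 in mutants (SD, n = 12 each), with a log2 fold change of 0.26 (95% interval -0.37 to 0.88, edgeR adjusted p = 0.932), so that a change of up to 1.84-fold up or to 0.775 of the control level lay within the interval. The value was 0.11 without the first control mouse of ZT14, which had 3 reads, 0.14 without the second of ZT10 and 0.17 without the first mutant of ZT10.

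Nadk, which supplies NADP, varied least of the 8, with 264 to 468 reads in all 24 libraries. Controls had 440/398 at ZT2, 409/468 at ZT6, 459/446 at ZT10, 275/297 at ZT14, 403/370 at ZT18, 264/352 at ZT22. Mutants had 382/399, 323/374, 455/354, 383/461, 370/395, 315/338. The control mice of ZT14 were low beside those of ZT2 to ZT10, while 1 mutant of ZT14 had the highest value of its genotype, and there the genotypes did not overlap. They also did not overlap at ZT6, where controls were higher. The 2 control libraries of ZT14 had the highest mitochondrial shares of the 24, at 17.4% and 15.3%. Over all times the means were 382 ± 71.3 and 379 ± 45.6 reads (SD, n = 12 each), with a log2 fold change of 0.0033 (95% interval -0.19 to 0.19, edgeR adjusted p = 0.997). The fitted amplitude was 16.7% of the mean in controls (meta2d p = 0.309) and 8.39% in mutants (meta2d p = 0.992, n = 12 each), while the rhythm difference had p = 0.211 (edgeR, n = 24, adjusted p = 1.00).

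The 4 sirtuins of the group act in different parts of the cell, and none passed the tests of genotype or rhythm. Sirt1, which deacetylates BMAL1 and PER2 among many proteins, had 341/294 reads at ZT2, 366/324 at ZT6, 201/360 at ZT10, 344/195 at ZT14, 340/370 at ZT18, 338/161 at ZT22 in controls. Mutants had 294/255, 334/230, 221/230, 272/202, 319/307, 308/191 at the same times. The mutant mean was below the control mean at 5 of 6 times and equal to it at ZT22, but the mice of the genotypes did not overlap only at ZT18. Over all times the means were 303 ± 74.0 in controls and 264 ± 48.7 in mutants (SD, n = 12 each), and the log2 fold change was -0.20 (SE 0.13, 95% interval -0.47 to 0.068, edgeR p = 0.138, adjusted p = 0.833). An exact permutation of the genotypes within each time, with 46656 arrangements, gave a two-sided p of 0.216. The fitted amplitude of Sirt1, 3.63% of the mean in controls, was the lowest of the 8 (meta2d p = 1.00, n = 12).

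The fitted Sirt1 difference stayed below 0 but varied in size with single libraries and with marker lists. Without the second control mouse of ZT10 the log2 fold change was -0.14, the value nearest 0, and it was -0.14 without the first of ZT14 and -0.15 without the first of ZT22. Without the second control mouse of ZT22 the log2 fold change was -0.26 (edgeR p = 0.0411, n = 23, adjusted p = 0.752). With the summed genes of the isolation response, which rise when tissue is dissociated, as a covariate, it was -0.33 (edgeR p = 0.0214, n = 24, adjusted p = 0.744). All 9 genes of that list were detected, and they summed to 17474 to 58880 reads in controls and 22242 to 64183 in mutants. With oligodendrocyte markers as a covariate it was -0.27 (edgeR p = 0.0607, n = 24, adjusted p = 0.837). Set directly against the summed isolation response, Sirt1 had r = 0.24 over 24 libraries (permutation p = 0.258), 0.36 within the 8 of ZT6 and ZT18 (permutation p = 0.448) and -0.020 within the other 16 (permutation p = 0.941).

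Sirt2 was highest in the controls of ZT2. Controls had 436/557 reads at ZT2, 230/320 at ZT6, 301/370 at ZT10, 305/325 at ZT14, 378/292 at ZT18, 289/373 at ZT22. Mutants had 314/360, 253/307, 378/366, 349/362, 339/308, 263/328. Controls were above mutants at ZT2 and below them at ZT14 with no overlap, and the other 4 times overlapped. The means were 348 ± 84.9 and 327 ± 40.0 (SD, n = 12 each), with a log2 fold change of -0.074 (95% interval -0.28 to 0.13, edgeR adjusted p = 0.948). It was -0.026 without the second control mouse of ZT2, which had 557 reads, -0.036 without the first mutant of ZT2 and -0.045 without the second control of ZT22. Meta2d gave p = 0.999 in controls and 0.794 in mutants (n = 12 each), while the rhythm difference had p = 0.201 (edgeR, n = 24, adjusted p = 1.00).

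SIRT2 is abundant in oligodendrocytes, the myelin-forming cells, whose markers were set beside it for that reason. Summed oligodendrocyte markers were 12887 and 11462 reads in the controls of ZT2 and 9852 and 9187 in the mutants, and they were 11487 and 18103 in the controls of ZT14, where Sirt2 had 305 and 325 reads. Pearson's r of Sirt2 with them was 0.50 (permutation p = 0.204) within the 8 ZT6 and ZT18 libraries and 0.33 (permutation p = 0.216) within the other 16, with adjusted p of 0.660 and 0.764, and it was 0.69 and 0.54 without the 2 farthest libraries of each. With neuronal markers r was 0.59 over 24 libraries (permutation p = 0.00188, adjusted 0.0351) and rho 0.46 (permutation p = 0.0250, adjusted 0.172). The r was 0.44 without the 2 farthest libraries, 0.81 (permutation p = 0.0143, adjusted 0.587) within the 8 and 0.38 (permutation p = 0.149, adjusted 0.756) within the 16, the latter pair becoming 0.58 and 0.66 without their 2 farthest. With the isolation response r was -0.55 over all (permutation p = 0.00548, adjusted 0.0594), 0.47 within the 8 and -0.60 within the 16, so that its sign changed between the series. Over all it was -0.36 without the 2 farthest libraries, and rho was -0.37 (permutation p = 0.0728, adjusted 0.221). With oligodendrocyte markers as a covariate the log2 fold change of Sirt2 was -0.027 (edgeR p = 0.815, n = 24, adjusted p = 0.990) and the rhythm difference had p = 0.237. With the isolation response as a covariate the fold change was 0.0047. Whether these cells gave the high Sirt2 values of ZT2 was not tested. The genes most like Sirt2 over the 24 libraries were the pseudogene Fabp3-ps1 (r = 0.71, with 3 reads on average), Igsf8 (0.70), AL732506.1 (0.69), Rpph1 (0.68), the RNA component of RNase P, and Ssr4 (0.67).

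Sirt3 and Sirt6 had the fewest reads per kb of the 8. Sirt3 had 69/37, 25/52, 12/39, 57/36, 33/12, 32/45 reads from ZT2 to ZT22 in controls, 16/53, 39/7, 34/31, 21/38, 27/21, 52/39 in mutants. The genotypes overlapped at all 6 times. Its means were 37.4 ± 16.9 and 31.5 ± 13.9 (SD, n = 12 each), with a log2 fold change of -0.23 (95% interval -0.91 to 0.46, edgeR adjusted p = 0.953). It lay between -0.15 and -0.11 without the second mutant or second control mouse of ZT6, the first mutant or first control of ZT2 or the first mutant of ZT14. The interval allows 0.532 to 1.37 times the control level.

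Sirt6 had 36/24, 19/28, 32/16, 39/37, 38/44, 40/22 reads in controls, 68/23, 11/30, 16/40, 25/30, 0/38, 17/23 in mutants over the same times. The mutants held both the highest value, at ZT2, and the lowest, at ZT18, and the genotypes did not overlap only at ZT14. The means were 31.2 ± 9.21 and 26.8 ± 17.1 (SD, n = 12 each), and the log2 fold change was -0.27 (95% interval -1.11 to 0.58, edgeR adjusted p = 0.957). This value depended on single libraries, being -0.10 without the first mutant of ZT18 and -0.44 without the first mutant of ZT2, and it was -0.085 without the ZT6 and ZT18 libraries. In controls meta2d gave p = 0.160 (n = 12), which became 0.0153 without the second mouse of ZT22 and lay between 0.137 and 0.505 without any other.

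Parp1 was the only gene of the 8 with a meta2d p under 0.05 in controls, at p = 0.0436 (n = 12) with q = 1.00, where 2.43% of all genes tested had such a p. Controls had 466/512 reads at ZT2, 415/334 at ZT6, 306/484 at ZT10, 258/191 at ZT14, 359/346 at ZT18, 459/481 at ZT22. The 4 control mice of ZT22 and ZT2 lay between 459 and 512 reads and both mice of ZT14 were the lowest. The same 2 ZT14 libraries had the highest mitochondrial shares of all 24, 17.4% and 15.3%, whose part in the Parp1 values was not tested. The fitted amplitude was 27.4% of the mean with a peak at ZT1.44. JTK_CYCLE alone gave p = 0.0272, Lomb-Scargle alone 0.271, meta2d on values rescaled by TMM 0.0810, the edgeR cosinor 0.0321 (4.43% of all genes under 0.05) and 100000 permutations of the times 0.0165. The edgeR cosinor without the ZT6 and ZT18 libraries gave 0.0249.

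This p lay near the threshold and crossed it when most single mice were left out. It rose above 0.05, to 0.0588 to 0.186, when each of 10 control mice was left out in turn, and stayed below only without the second mouse of ZT6 (0.0256) or the second mouse of ZT10 (5.5e-04). The former 10 were both mice of ZT2, ZT14, ZT18 and ZT22 and the first mice of ZT6 and ZT10. With a q of 1.00 the rhythm did not pass the correction over all genes, for which the study used q under 0.6, a threshold met by 0.310% of genes in controls.

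In mutants Parp1 had 262/481 reads at ZT2, 301/364 at ZT6, 460/539 at ZT10, 334/355 at ZT14, 309/269 at ZT18, 426/477 at ZT22. The highest mutant value, 539, was at ZT10, followed by 481 at ZT2 and 477 at ZT22, and the lowest were 262 at ZT2 and 269 at ZT18. The genotypes did not overlap at ZT14, where mutants were higher, and at ZT18, where controls were. Meta2d gave p = 1.00 in mutants (n = 12) with an amplitude of 7.26% of the mean. The difference in rhythm between the genotypes, tested itself, had p = 0.160 in edgeR (n = 24, adjusted p = 1.00), and 0.0249 (adjusted p = 1.00) without the second control mouse of ZT10. Over all times the means were 384 ± 101 reads in controls and 381 ± 92.4 in mutants (SD, n = 12 each; log2 fold change 0.0016, 95% interval -0.23 to 0.24, edgeR adjusted p = 0.999).

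Red blood cell transcripts were set beside Parp1, and no relation passed after adjustment. All 5 of these markers, 4 globin genes and Alas2, were detected, and among controls their sum was highest, at 5351 and 9014 reads, at ZT14, where Parp1 was lowest, and 2244 to 5131 in the other controls. Within the 16 libraries outside ZT6 and ZT18 Pearson's r was -0.73 (permutation p = 0.00125, adjusted over 56 relations 0.0700), rho was -0.60 (permutation p = 0.0153, adjusted 0.444) and r without the 2 farthest libraries was -0.58. Within the 8 of ZT6 and ZT18 r was 0.38 (permutation p = 0.350), and over all 24 it was -0.26 (permutation p = 0.215). The part of blood in the Parp1 values was not tested.

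**Figure D4:**
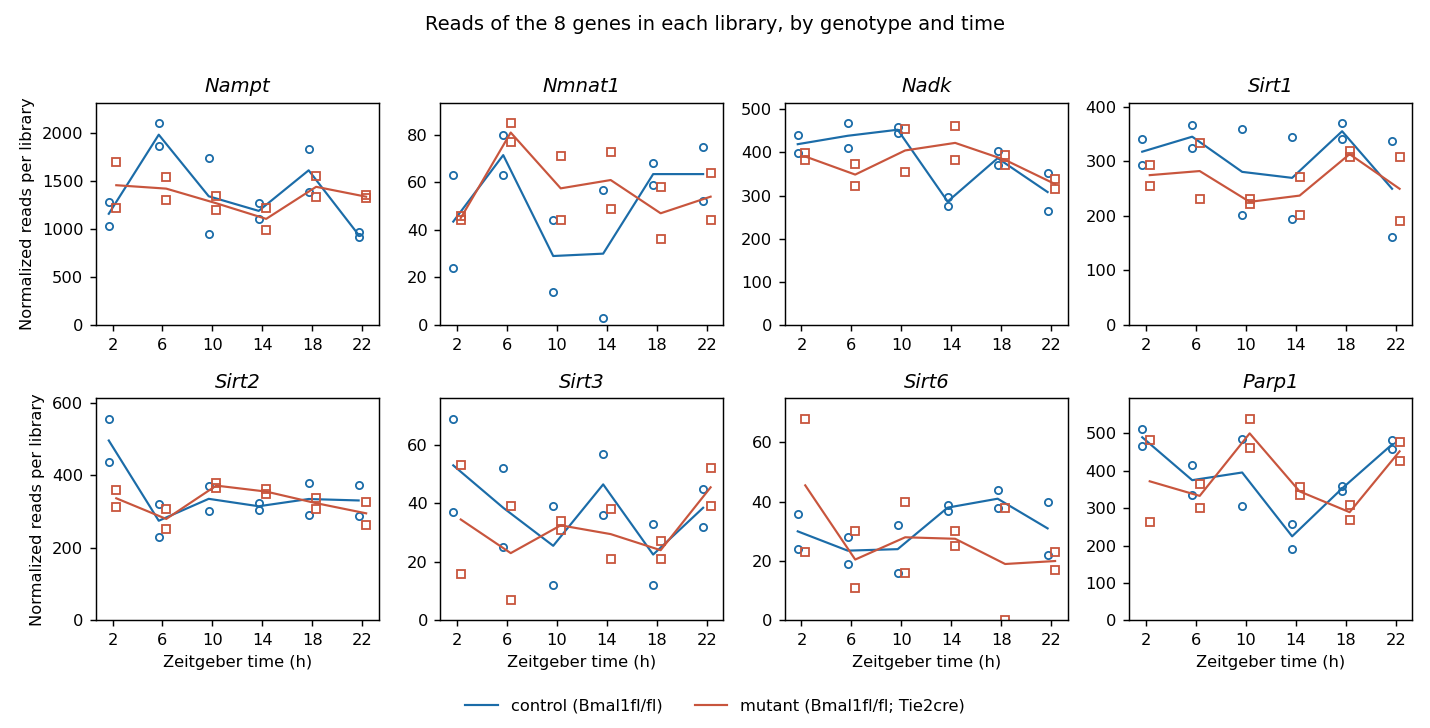
Normalized reads of the 8 genes by zeitgeber time in hours, with each mouse as a point (circles for controls, squares for mutants, shifted sideways for clarity) and lines through the mean of 2 mice. Nampt peaks at ZT6 and ZT18 in controls, Parp1 has its control low at ZT14, and the mice of one time often differ as much as the times do.

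No gene of the 8 had a meta2d p under 0.05 in mutants, where 2.27% of all genes tested did, and the lowest p was 0.794 for Sirt2. In the test of the difference in rhythm 0 of 8 passed adjusted or unadjusted, with p from 0.160 to 0.926 in edgeR, where 4.26% of all genes had an unadjusted p under 0.05 and 0 genes an adjusted one. DESeq2 called 0 of 8 as well, adjusted or unadjusted. The amplitudes were small beside those of clock genes in the same libraries. They ranged from 3.63% to 27.7% of the mean in controls for the 8 genes, and from 77.9% for Per3 to 120% for Dbp, an output regulator of the clock, for 7 clock genes. In mutants the 8 genes had 7.26% to 21.0% and the clock genes 21.7% to 80.6%. These are descriptions of fitted curves, and amplitudes of genes with few reads, such as Nmnat1 and Sirt6, also hold counting error.

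**Figure D5:**
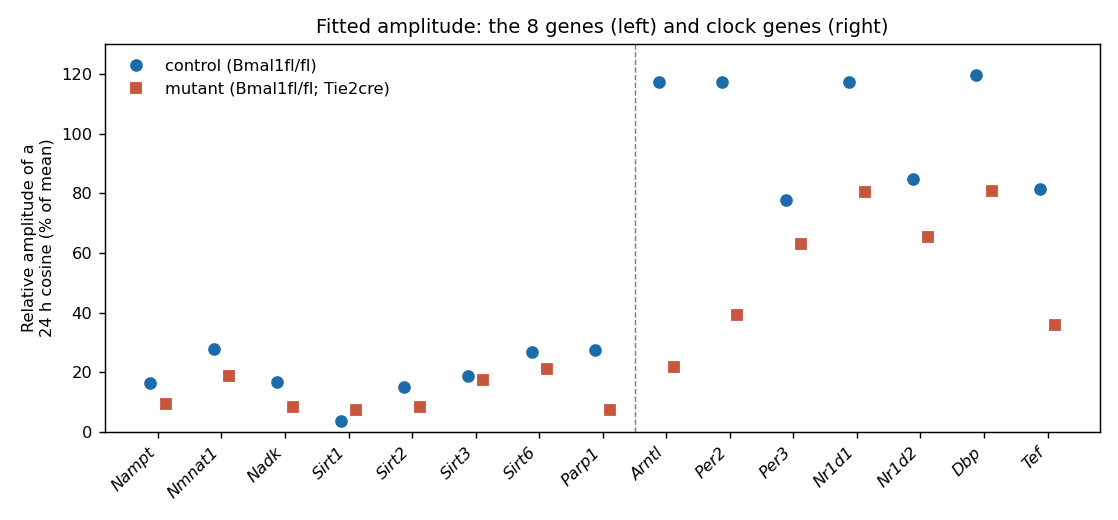
Amplitude of a fitted 24-h cosine as a percentage of the gene's mean, in controls (circles) and mutants (squares), for the 8 genes on the left and 7 clock genes on the right of the dashed line. The 8 genes reach at most 27.7% in either genotype, and the clock genes of controls lie at 77.9% or more.

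Taken time by time, the mice of the genotypes did not overlap in 11 of 48 combinations of gene and time, with mutants higher in 4 and lower in 7. The share of all genes tested whose genotypes did not overlap was 35.7% at ZT2, 33.2% at ZT6, 31.1% at ZT10, 40.4% at ZT14, 33.1% at ZT18 and 30.4% at ZT22. The most of the 8 genes that did not overlap was 4 at ZT14 (Nadk, Sirt2 and Parp1 higher in mutants and Sirt6 lower), and at ZT10 there were 0. With 2 mice in each group no test was made of single times. The coefficient of variation over 12 libraries was larger in controls than in mutants in 7 of 8 genes, Sirt6 being the exception, and in 59.1% of all genes tested. It spans the 6 times and both series, so that it is not the spread between mice alone. For Nampt it was 30.2% in controls and 13.9% in mutants, and for Sirt2 24.4% and 12.2%. Within the ZT6 and ZT18 libraries it was 16.7% and 9.19% for Nampt, and within the others 23.7% and 15.5%.

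Correlations among the 8 genes were weak to moderate. Over 24 libraries Pearson's r of log2 CPM between any 2 of them lay between -0.34 (Nmnat1 and Sirt1) and 0.46 (Nampt and Sirt1). All points share the libraries and their series. Nampt and Sirt1 had r = 0.50 in controls and 0.44 in mutants. Within a genotype the highest r was that of Nadk and Sirt2, 0.73 in mutants beside 0.12 in controls. The lowest was that of Sirt1 and Parp1, -0.64 in mutants beside 0.18 in controls. Sirt6 and Parp1 had -0.58 in controls and 0.056 in mutants. These pairs were picked after their values were seen, and none is given a test.

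Of 45 further genes of NAD metabolism, 35 passed the filter, and 0 of them had an adjusted p under 0.05 for genotype in edgeR. Their median log2 fold change was 0.027, with 21 above 0 and 14 below, beside 7845 and 7648 of all genes. Unadjusted, Parp4, a vault-associated polymerase, was at 552 ± 107 reads in controls and 630 ± 104 in mutants (SD, n = 12 each; log2 fold change 0.20, SE 0.091, edgeR p = 0.0352, adjusted p = 0.654). Nnt, the mitochondrial enzyme that passes hydride between NADH and NADP, was at 200 ± 73.9 and 162 ± 65.3 (log2 fold change -0.34, SE 0.17, edgeR p = 0.0468, n = 24, adjusted p = 0.706). Of all genes, 3.78% were higher and 3.18% lower at an unadjusted p under 0.05.

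By group, 7 of 16 genes of other routes to NAD passed the filter, with fold changes between -1.55 for Haao and 0.17 for Nadk2 on the log2 scale. Of the genes of the tryptophan route, Tdo2, Ido1 and Ido2 had means under 1 read in both genotypes and did not pass. Afmid, Kmo, Kynu and Qprt did not pass either, with means of 0.333 to 2.92 reads. Acmsd, listed beside them but not a gene of synthesis, also had means under 1 read. Nadk2, the mitochondrial NAD kinase, had 171 ± 52.0 reads in controls and 190 ± 42.4 in mutants (SD, n = 12 each). Of nicotinamide and NMN handling 8 of 9 genes passed, among them Slc25a51, the mitochondrial NAD carrier, with 367 ± 58.1 and 375 ± 58.5 reads. Fold changes in that group lay between -0.83 for Slc12a8 and 2.10 for Pnp2, and these 2 genes and Haao had means of 1.5 to 7.75 reads with intervals that span 0. Pnp2 is a close copy of Pnp, so that its reads are uncertain. All 3 other sirtuins passed, and their fold changes lay between -0.024 and 0.11 on the log2 scale. All 17 further NAD-consuming enzymes passed, with fold changes between -0.45 for Bst1 and 0.35 for Parp11 on the log2 scale.

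Rhythms were tested in this list in the same way. In controls 1 of 35 had a meta2d p under 0.05, Parp11 (n = 12, p = 0.0254, q = 1.00), with an amplitude of 60.3% and a peak at ZT0.514, where 2.43% of all genes had such a p. In mutants 1 of 35 did, Nt5e, which encodes the ectoenzyme CD73 (n = 12, p = 0.00445, q = 1.00, amplitude 68.8%), where 2.27% of all genes did. For the rhythm difference 0 of 35 had p under 0.05, unadjusted or adjusted, by edgeR (n = 24), with p = 0.0988 for Parp11 and 0.331 for Nt5e.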

How the data were processed

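The deposited table holds whole-number read counts per gene for 24 libraries, 1 per mouse. Reads were aligned by the authors with STAR 2.5.3a (GRCm38); they merged lanes with SAMtools 1.3.1 and normalized the counts with PORT, which resamples reads to similar totals, so that depth before normalization is not in the values. Groups came from the sample labels. The study describes 2 independent experiments for these libraries. The labels do not say which mouse belongs to which, so no term for experiment was fitted, and p-values measure the spread between these mice. The numbers in the labels of the ZT6 and ZT18 libraries form a consecutive run, but what these numbers stand for is not stated. The 8 genes and all gene lists were chosen with earlier results of these data known, and the genes named are the 8, the targeted gene, up to 6 further NAD genes with the smallest unadjusted p under 0.05 for genotype and up to 6 for rhythm in controls, and the 5 genes most like Nampt and the 5 most like Sirt2. Nt5e, Nadk2, Slc25a51, Bst1 and the genes at the ends of a range were named after their values were seen.

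Genotype was tested by the quasi-likelihood method of edgeR 4.0.16 (R 4.3.3) after TMM scaling, with time as a factor, and the difference in rhythm by terms that let a 24-h cosine and sine differ by genotype, with Benjamini-Hochberg adjustment over 15493 genes. Rhythm within a genotype was tested with meta2d, recoded for this work in Python 3.11.15 (SciPy 1.17.1, pandas 2.3.3, NumPy 2.4.6). DESeq2 1.42.0 was an alternative. Figures used matplotlib 3.10.9. The scripts were tested on simulated data. Exon lengths and positions came from a GENCODE annotation of GRCm38 that held 53274 of 53465 listed genes.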

Additional observations from a re-analysis of the deposited data

Results flagged for a closer look

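The fitted genotype difference of Nampt was below 0 at ZT6 and ZT18 and above 0 at the other 4 times, though within those 4 the ratio of the mutant to the control mean was 1.26 at ZT2 and 1.42 at ZT22 but 0.946 at ZT10 and 0.930 at ZT14. The log2 fold change of mutants over controls at ZT6 and ZT18 minus that at the other 4 times was -0.44 (SE 0.21, edgeR p = 0.0459, n = 24, adjusted p = 1.00), a difference between groups tested by an interaction term that was added after the data were seen. An unadjusted p under 0.05 was reached by 4.38% of all genes. Among the 8 genes only Nampt reached it, the others having an edgeR p of 0.222 (Parp1) to 0.984 (Sirt1). The 8 libraries of ZT6 and ZT18 also stand apart in mitochondrial and microglial reads, and time and series cannot be told apart.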

How the results depend on the processing

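By adjusted p, the number of the 8 genes under 0.05 was 0 for genotype under each of 36 alternatives and 0 for the difference in rhythm under each of 35. By unadjusted p it was 0 for rhythm in mutants under each of 20. Some of these 20 used JTK_CYCLE alone, an edgeR cosinor or a permutation of the cosinor in place of meta2d. An exact permutation for genotype gave 0 by unadjusted p. Unadjusted edgeR p under 0.05 did occur: for genotype in 2 alternatives for Sirt1 (0.0214 and 0.0411, n = 24 and n = 23) and in 1 for Nampt (ZT6 and ZT18 libraries alone), and for the difference in rhythm in 1 for Nampt (0.0312) and 1 for Parp1 (0.0249). With the replicate number as a block it was 0 for genotype and 0 for the difference in rhythm, and for Nampt the log2 fold change was -0.0032. Replicate numbers did not pair the mice: deviations from the group means of same-numbered mice correlated at -0.0087 to 0.015 over 6 times. The block moved the count of all genes called for genotype from 42 to 45. For rhythm in controls the count of 1 by unadjusted p (Parp1) became 0 with Lomb-Scargle alone and 0 with values rescaled by TMM (p = 0.0810, n = 12), and lay between 0 and 1 with 1 mouse left out; without the second control of ZT22 the gene counted was Sirt6 in place of Parp1. Fitted genotype differences of Nampt, Nadk and Parp1 changed sign between alternatives, ranging from -0.30 to 0.14, -0.15 to 0.075 and -0.21 to 0.098 on the log2 scale, as did those of Nmnat1 (-0.096 to 0.44) and Sirt2 (-0.12 to 0.011), while that of Sirt1 was negative in all 36, from -0.33 to -0.14, and those of Sirt3 and Sirt6 in all 34, from -0.33 to -0.060 and from -0.64 to -0.085 (Sirt6 -0.62 with the i5 term). Over all genes the genotype calls were 42 in the main test, 141 with no filter, 99 with DESeq2, 28 without the ZT6 and ZT18 libraries, 17 with oligodendrocyte markers as a covariate, 15 with a cosine and sine for time, 7 with an i5 term (the index is unequal between the genotypes), 3 in the ZT6 and ZT18 libraries alone, and 25 to 68 with 1 library left out (68 without the first and 25 without the second mutant of ZT6). The calls for the difference in rhythm were 0, but 52 with no filter, 5 without the ZT6 and ZT18 libraries, 2 with the time factor and 1 with DESeq2, with the i5 index, oligodendrocyte markers added or without the second control of ZT22. Under a filter of 10 reads in every library Nmnat1, Sirt3 and Sirt6 dropped out.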
